A study of Mus musculus with 12 samples.

Results

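Macula densa cells were compared with other sorted cells of the kidney cortex in mice kept on a low salt diet with enalapril, the state in which the macula densa signals for renin release. The comparison was set by the sample labels: 2 libraries of macula densa cells against 4 libraries of control cells, which are 6 of the 12 libraries of the series. All C57BL/6 mice had a Cre that tamoxifen activates, driven by the gene of neuronal nitric oxide synthase (nNosCreERT2), together with the mTmG reporter, which turns recombined cells from red membrane tdTomato to green membrane GFP. Sorted green cells gave the macula densa libraries, and red cells with the strongest tdTomato gave the controls, which were meant to represent epithelium of the distal tubule and collecting duct. The low salt diet was given for 14 days with enalapril, an inhibitor of angiotensin-converting enzyme, at 150 mg per litre of drinking water. The other 6 libraries came from mice of the same strain and genotype on control diet, 2 of macula densa cells and 4 of control cells, and entered the same fit. The age and sex of the mice, and whether each library came from a separate animal, are not given in the sources used here, so p-values measure only the spread between these libraries, which may in part be technical. Any cell in which the Cre was active turns green, so the sort rests on the driver gene.

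The macula densa is a plaque of tubular cells where the thick ascending limb of the loop of Henle ends and touches its own glomerulus. Its cells sense luminal salt through the apical sodium, potassium and chloride cotransporter, and they act on the afferent arteriole and on renin cells through nitric oxide, prostaglandin E2, ATP and adenosine. Low salt intake and blockade of angiotensin formation are known to raise cyclooxygenase-2 in these cells and renin in the arteriole wall.

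The 6 libraries held 4259020 to 14856542 counts, of which the ribosomal RNA locus Gm42418 took 56.5% to 65.0% and nuclear protein-coding genes 781257 to 2331481 counts. Levels are given in CPM, counts per 1000000 of the library total scaled by trimmed means of M values, and 3 counts correspond to 0.231 to 0.734 CPM in these libraries. CPM is not corrected for gene length, so levels are compared between libraries and not between genes.

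The sorted cells were first checked against markers of the cell types that kidney cortex can yield. Summed over the 3 defining genes Nos1, Pappa2 and Ptgs2, the macula densa libraries reached 1182 and 612 CPM, and the 4 control-cell libraries 1.61, 3.43, 0.84 and 2.75 CPM. Nos1 is the driver of the Cre and therefore checks the sort rather than being a finding. The 14 thick ascending limb markers summed to 2874 and 3069 CPM in macula densa cells and to 914, 584, 1209 and 424 CPM in control cells. The 10 principal cell markers of the collecting duct were low in the macula densa libraries, at 11.9 and 33.8 CPM, and stood at 384, 203, 115 and 302 CPM in control cells.

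The control cells also held transcripts of cell types outside the distal nephron. The 10 podocyte markers summed to 49.8 and 35.9 CPM in macula densa cells and to 162, 1261, 242 and 1061 CPM in control cells. For the 12 endothelial markers the sums were 20.3 and 14.4 CPM against 435, 1093, 318 and 1463 CPM. The 7 markers of smooth muscle and renin cells gave 24.7 and 22.0 CPM against 154, 602, 300 and 383 CPM. Control-cell replicates 2 and 4 thus stood apart, with the highest podocyte and endothelial sums. For the lists below it is said which calls remained without both of them. They are also the only control-cell libraries here that share a label number with a macula densa library. Leaving them out thus also removes any controls matched to macula densa libraries by that number, whose meaning the labels do not state. In sorted bulk libraries, fewer cells of a type and less RNA per cell cannot be told apart.

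**Figure D1:**
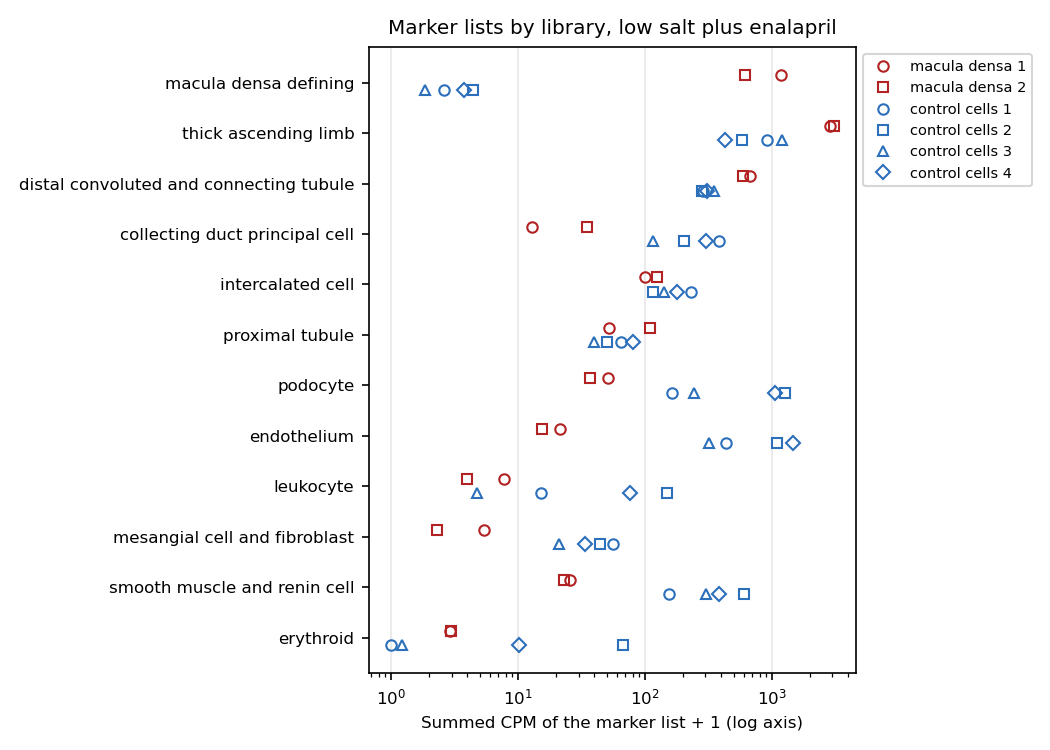
Summed CPM plus 1 of each marker list (log axis) in the 2 macula densa libraries (red) and the 4 control-cell libraries (blue) on low salt plus enalapril, with a symbol shape per replicate. Macula densa and thick ascending limb markers lie to the right in the red libraries, and podocyte, endothelial and smooth muscle markers lie to the right in the blue ones. The endothelial sums were highest in control-cell replicates 2 and 4, at 1093 and 1463 CPM.

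Across 14180 genes tested, 1031 (7.27%) passed a Benjamini-Hochberg adjusted p of 0.05 in edgeR's quasi-likelihood test, and these are the genes referred to as called. In macula densa cells, 446 of them (3.15%) were higher and 585 (4.13%) lower. Both macula densa libraries lay above all 4 control-cell libraries for 15.3% of the genes tested and below all 4 for 19.5%. The median log2 fold change over all genes was -0.06. With scaling by library totals alone this median moved to 0.16 and the split became 736 higher and 392 lower. The number of calls rested on single libraries: it was 587 without macula densa replicate 1, 194 without macula densa replicate 2, 602 without control-cell replicate 2 and 517 without control-cell replicate 4. With both of these control-cell libraries left out it was 330. The control-diet libraries share the fit, and it became 659 without control-cell replicate 3 of that diet and 1894 without replicate 4. The text names 127 called genes with a result, 50 higher and 77 lower. Limma voom with sample weights kept the call of 49 of the 50 higher genes, all except the sex-linked gene Kdm5d. It kept 13 of the 77 lower genes, and the DESeq2 Wald test kept all 127. Without control-cell replicates 2 and 4, which leaves fewer control-cell libraries, 24 of the 50 higher and 50 of the 77 lower genes lost the call.

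**Figure D2:**
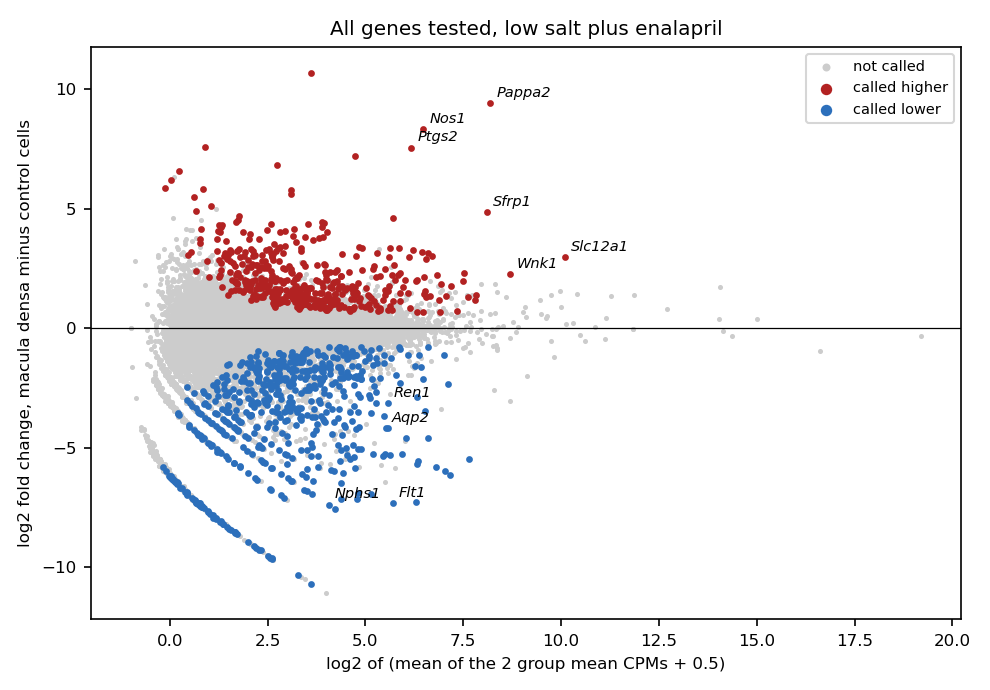
Fitted log2 fold change of macula densa over control cells against mean level for the 14180 genes tested, with the 446 genes called higher in red and the 585 called lower in blue. The curve of points along the lower edge is formed by genes with 0 counts in both macula densa libraries, whose fitted fold depends on the prior count and is not a measured size.

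The 15 genes named as higher had the greatest fitted fold changes among called genes whose groups did not overlap and whose macula densa mean was at least 5 CPM. They include Pappa2, Ptgs2, the driver gene Nos1, Aard, Frem1, Slc6a7, Vash2 and Ndst4, which were at most 1.47 CPM in any control-cell library and at least 9.58 CPM in both macula densa libraries. Sfrp1, Pamr1, Mcub, Ksr2 and Tmem158 were present in control cells at low levels and were more than a log2 fold change of 4 higher in macula densa cells. Of the 15, all except Pcdh8 were called in 23 of 23 alternative analyses.

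Pappa2 (chr1:158711727-158980490, minus strand, mm10) encodes a secreted metalloprotease that cleaves insulin-like growth factor binding proteins. It measured 774 and 383 CPM in macula densa replicates 1 and 2, and 0.77, 1.22, 0 and 1.22 CPM in control-cell replicates 1 to 4. The groups lay far apart, although the macula densa libraries themselves differed from each other, and the log2 fold change was 9.41 (SE 0.68, edgeR adjusted p 3.16e-05). Nos1 (chr5:117781032-117958840, plus strand) measured 232 and 122 CPM against 0.62, 0.73, 0.42 and 0.41 CPM, so that replicate 1 was again the higher of the macula densa libraries.

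Ptgs2 (chr1:150100031-150108227, plus strand), which encodes cyclooxygenase-2, stood at 175 and 108 CPM in macula densa cells and at 0.23, 1.47, 0.42 and 1.12 CPM in control cells. No control-cell library came near the macula densa level, and the log2 fold change was 7.56 (SE 0.65, edgeR adjusted p 8.53e-05). Aard (chr15:52040107-52045722, plus strand), a small gene for a protein rich in alanine and arginine, had 29.3 and 17.6 CPM in macula densa cells and 0 counts in each of the 4 control-cell libraries. Against a floor of 3 counts per library this is at least 49.3-fold higher (edgeR adjusted p 0.00221).

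Frem1 (chr4:82897920-83052339, minus strand) encodes an extracellular matrix protein of the Fraser complex, which anchors epithelia to basement membrane. Its levels were 64.0 and 40.2 CPM against 0.08, 0.98, 0.42 and 0.31 CPM, a log2 fold change of 7.20 (SE 0.53, edgeR adjusted p 3.16e-05). Slc6a7, a proline transporter known from brain, had 9.58 and 14.8 CPM in macula densa cells, while the control-cell libraries had 0.15, 0.25, 0 and 0 CPM. With so few control counts its ratio was 131-fold, with a 95% Poisson interval of 44.7 to 634 that covers counting error only.

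Vash2 (chr1:190947646-190979296, minus strand) encodes a vasohibin, a secreted regulator of vessel growth that also removes tyrosine from tubulin. Its macula densa levels of 15.1 and 16.2 CPM hardly differed, and control cells had 0.08, 0.25, 0.63 and 0.31 CPM, for a log2 fold change of 5.80 (SE 0.43, edgeR adjusted p 3.16e-05). Ndst4 (chr3:125404076-125728899, plus strand), a heparan sulfate N-deacetylase and N-sulfotransferase, measured 13.2 and 18 CPM against 0.08, 0.73, 0.21 and 0.41 CPM. It was higher by a log2 fold change of 5.63 (SE 0.65, edgeR adjusted p 0.000666).

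Sfrp1 (chr8:23411502-23449632, plus strand), a secreted antagonist of Wnt ligands, was among the genes with a clear level in control cells. It measured 565 and 496 CPM in macula densa cells and 9.22, 37.5, 7.98 and 19.3 CPM in control cells, where replicates 2 and 4 were the higher ones. The log2 fold change was 4.85 (SE 0.85, edgeR adjusted p 0.00672). Pamr1 (chr2:102550012-102643041, plus strand), a secreted protein with a protease-like domain, had 108 and 90.1 CPM against 5.0, 2.20, 6.72 and 2.14 CPM, with the higher control values in replicates 1 and 3. Its log2 fold change was 4.63 (SE 0.49, edgeR adjusted p 0.000403).

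Mcub (chr3:129914960-129970206, minus strand) encodes the inhibitory pore subunit of the mitochondrial calcium uniporter. It stood at 28.4 and 26.4 CPM in macula densa cells and at 0.85, 2.45, 1.47 and 0.81 CPM in control cells (log2 fold change 4.43, SE 0.57, edgeR adjusted p 0.00127). Tmem158 (chr9:123259053-123260764, minus strand), a membrane protein first found as induced by Ras, gave 25.9 and 16.9 CPM against 1.61, 0.73, 0.21 and 1.12 CPM (log2 fold change 4.36, SE 0.57, edgeR adjusted p 0.00138). Vegfd (chrX:164373378-164402650, plus strand), a growth factor for lymphatic endothelium, was lower in level and had 4.98 and 5.91 CPM against 0.08, 0.25, 0 and 0.51 CPM (log2 fold change 4.54, SE 0.75, edgeR adjusted p 0.00514).

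Pcdh8 (chr14:79766775-79771312, minus strand), a protocadherin, was the least secure of the 15. It measured 3.07 and 7.87 CPM in macula densa cells and 0, 0.73, 0.42 and 0 CPM in control cells, with an edgeR adjusted p of 0.0359 that reached 0.252 among the alternatives. It was called in 16 of 23 of them.

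Ksr2 (chr5:117414000-117775003, plus strand), a scaffold of the RAF, MEK and ERK kinases, had 32.6 and 24.4 CPM in macula densa cells and 1.08, 1.22, 1.68 and 1.42 CPM in control cells. The 4 control-cell values were close together, and its log2 fold change of 4.41 had the smallest standard error of the 15 genes (SE 0.25, edgeR adjusted p 2.53e-06). Ksr2 lies next to the driver gene: it ends 6028 bases before the start of Nos1 on the same strand. Of the 10 genes tested within 500000 bases of Nos1, itself included, Nos1 and Ksr2 were the 2 called. Fbxo21, the nearest gene on the other side at 17889 bases, was at 0.98 on the log2 scale (edgeR adjusted p 0.0759). Whether reads that run past gene ends contribute to the count of Ksr2 was not tested.

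**Figure D3:**
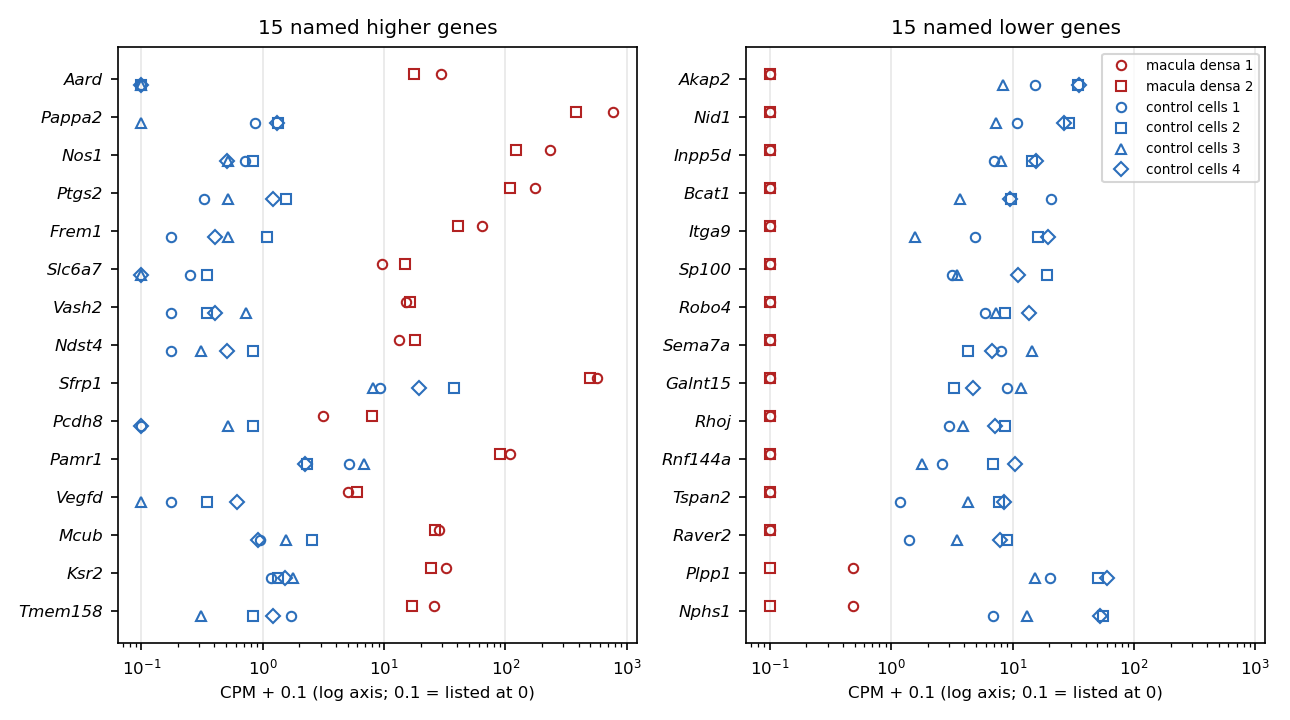
CPM plus 0.1 (log axis) in each library on low salt plus enalapril for the 15 genes named as higher and the 15 named as lower in macula densa cells, with macula densa libraries in red, control-cell libraries in blue and a symbol shape per replicate. Red and blue libraries do not overlap for any of the 30 genes, which the naming rule required, and 13 of the 15 lower genes were listed at 0 in both red libraries.

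Promoter sequences are shown for 4 of these genes, to set the regulatory sequence beside the higher level of each gene. In all 4 the RefSeq start lay within 2 bases of the GENCODE start. Pcdh8 also met this distance and is not shown. RefSeq entries were found for 9 of the 14 named higher genes searched. Each sequence is the 250 bases upstream of the RefSeq start in GRCm38.p6, read 5′ to 3′ on the gene's strand, and capitals mark matches to the motifs named after it. The intervals are chr1:150099781-150100030 (plus strand) for Ptgs2, chr1:190979297-190979546 (minus strand) for Vash2, chr5:117413752-117414001 (plus strand) for Ksr2 and chr3:129970207-129970456 (minus strand) for Mcub.
Ptgs2: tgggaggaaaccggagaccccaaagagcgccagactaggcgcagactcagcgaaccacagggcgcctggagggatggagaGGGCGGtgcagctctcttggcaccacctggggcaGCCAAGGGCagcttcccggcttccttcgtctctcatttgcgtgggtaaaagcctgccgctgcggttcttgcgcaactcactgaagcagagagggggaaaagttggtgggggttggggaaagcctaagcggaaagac
Vash2: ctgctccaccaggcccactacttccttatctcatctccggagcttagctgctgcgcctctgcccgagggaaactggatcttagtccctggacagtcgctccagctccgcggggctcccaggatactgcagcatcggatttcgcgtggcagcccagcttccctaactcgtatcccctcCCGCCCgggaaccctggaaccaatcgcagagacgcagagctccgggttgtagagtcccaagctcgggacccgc
Ksr2: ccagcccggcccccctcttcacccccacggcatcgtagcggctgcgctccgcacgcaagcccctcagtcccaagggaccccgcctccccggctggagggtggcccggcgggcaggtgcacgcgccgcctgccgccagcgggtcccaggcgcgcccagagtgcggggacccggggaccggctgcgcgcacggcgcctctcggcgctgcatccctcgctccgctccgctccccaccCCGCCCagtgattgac
Mcub: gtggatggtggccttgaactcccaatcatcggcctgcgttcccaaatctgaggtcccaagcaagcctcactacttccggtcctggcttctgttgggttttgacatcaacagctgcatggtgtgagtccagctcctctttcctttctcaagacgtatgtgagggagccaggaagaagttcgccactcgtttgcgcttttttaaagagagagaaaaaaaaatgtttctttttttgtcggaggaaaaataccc

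Motifs were searched on both strands in those 9 promoters and in all 32851 promoters of the table. The GC box, GGGCGG, matched in Ptgs2, Vash2 and Ksr2, 3 of the 9, and in 32.7% of all promoters. The motif GCCNNNGGC of TFAP2 factors matched only in Ptgs2 among the 9, and in 13.7% of all promoters. The TATA box, TATAAA, matched in Pcdh8 and Vegfd, and in 12.4% of all promoters. The cyclic AMP response element TGACGTCA, the E-box CACGTG, the AP-1 motif TGANTCA and the C/EBP motif TTNNGNAAT had no match in these 9 windows, against 1.55%, 6.02%, 6.75% and 10.2% of all promoters. The first of these contains the shorter form TGACG, which matched in Nos1 and in 17.8% of all promoters, though the RefSeq start of Nos1 lies 85807 bases from its GENCODE start. That of Pappa2, also among the 9, lies 22315 bases from its GENCODE start. A match is a description of letters in this window and not of a bound factor. The lack of an exact match does not show that a promoter lacks a site for the factor.

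Genes that make and carry prostaglandins were called in both directions. Of 15 tested genes of this list, 4 were called higher, namely Ptgs2, Pla2g4a, Tbxas1 and Ptger3, and 2 lower, Slco2a1 and Ptgs1. These counts, and those of the lists that follow, stand beside 3.15% of all genes called higher and 4.13% called lower. The lists were chosen with earlier results of these data known, so their counts do not test for an excess over these shares. The median log2 fold change of the list was 0.26 and was -0.17 without macula densa replicate 1, beside -0.06 over all genes. The cytosolic phospholipase Pla2g4a, which frees arachidonic acid for the cyclooxygenases, had 42.5 and 31.8 CPM in macula densa cells and 5.30, 5.14, 4.20 and 2.75 CPM in control cells. The lowest macula densa value was several times the highest control value, and the log2 fold change was 3.10 (SE 0.28, edgeR adjusted p 0.000137). Tbxas1, thromboxane synthase, stood at 37.9 and 16.6 CPM against 2.6, 2.94, 1.26 and 1.02 CPM (log2 fold change 3.80, edgeR adjusted p 0.000468). It overlaps Gm42962 on the opposite strand.

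The receptor gene Ptger3, for the EP3 receptor of prostaglandin E2, had 21.6 and 39.7 CPM in macula densa cells and 8.53, 2.94, 9.66 and 2.44 CPM in control cells (log2 fold change 2.37, edgeR adjusted p 0.0460). The other cyclooxygenase gene, Ptgs1, had 2.68 and 3.44 CPM in macula densa cells and 12.7, 9.79, 5.25 and 11.5 CPM in control cells, so that the 2 isoenzyme genes lay on opposite sides (log2 fold change -1.69, edgeR adjusted p 0.0412). Slco2a1, the prostaglandin uptake transporter, was lower by a log2 fold change of -5.00 (edgeR adjusted p 0.00992), with 1.72 and 0.984 CPM against 24.6, 54.4, 31.3 and 62.9 CPM. Slco2a1 is also known from endothelium, whose markers were highest in replicates 2 and 4, and it remained called without these 2 libraries but not without either macula densa library. The terminal synthase Ptges had 11.3 and 16.6 CPM against 7.15, 5.14, 3.57 and 3.66 CPM, which did not overlap but did not pass (edgeR adjusted p 0.184). Pla2g4a, Ptgs2 and Tbxas1 remained called without either macula densa library and without control-cell replicates 2 and 4, whereas Ptger3 and Ptgs1 did not.

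In the nitric oxide and cyclic GMP pathway, Nos1 was the 1 gene of 15 tested that was called higher, and Nos3 and Prkg1 were called lower. The endothelial synthase Nos3 had 0 counts in both macula densa libraries and 3.77, 5.63, 2.31 and 7.12 CPM in control cells, at least 8.82-fold lower (edgeR adjusted p 0.0381), and it overlaps Atg9b on the opposite strand. Prkg1, the kinase that cyclic GMP activates in smooth muscle, had 0.38 and 0 CPM against 3.69, 12.7, 5.25 and 15.4 CPM, a ratio of 49.3-fold with a counting interval of 13.6 to 407 (edgeR adjusted p 0.0338). The list's median was -1.26. Nos3 and Prkg1 lost the call without either macula densa library and without control-cell replicates 2 and 4, the libraries in which endothelial markers were also highest. Leaving out control-cell replicates 2 and 4 also leaves fewer control-cell libraries. The part of endothelial and smooth muscle transcripts in these differences was not tested.

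The insulin-like growth factor axis gave 2 genes called higher, Pappa2 and Igf2r, and 2 called lower, Igfbp5 and Igfbp7, of 11 tested, with a median of -0.19. Igfbp5, a binding protein that Pappa2 is known to cleave, had 9.96 and 7.71 CPM in macula densa cells and 116, 558, 64.9 and 835 CPM in control cells, with the highest values again in replicates 2 and 4. Its log2 fold change was -5.48 (SE 1.44, edgeR adjusted p 0.0407). Igf2r, which clears insulin-like growth factor 2, had 51.7 and 46.8 CPM against 30.7, 27.9, 31.7 and 27.7 CPM, a small difference between closely grouped libraries (log2 fold change 0.74, edgeR adjusted p 0.0334). The related protease gene Pappa had 59.8 and 51.0 CPM against 62.9, 16.4, 28.4 and 13.6 CPM, and the groups overlapped. Apart from Pappa2, the calls of this list were lost without either macula densa library and without control-cell replicates 2 and 4. Igfbp7 overlaps Polr2b on the opposite strand, so its count is uncertain.

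Genes for ATP release and adenosine handling were called in both directions, 2 higher and 3 lower of 11 tested. Slc29a1, an equilibrative nucleoside transporter, had 20.7 and 24.1 CPM in macula densa cells and 4.69, 8.57, 5.25 and 8.65 CPM in control cells (log2 fold change 1.73, SE 0.27, edgeR adjusted p 0.00398). Panx1, a channel that releases ATP, had 2.30 and 3.77 CPM against 0.62, 0.98, 0.84 and 0.41 CPM (log2 fold change 2.15, edgeR adjusted p 0.0434). Nt5e, the ectonucleotidase that forms adenosine from AMP, had 0 counts in both macula densa libraries and 2.77, 3.92, 1.68 and 3.36 CPM in control cells, at least 5.49-fold lower (edgeR adjusted p 0.0149).

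The adenosine receptor gene Adora1 had 0.38 and 0.16 CPM in macula densa cells and 8.76, 4.65, 7.77 and 5.59 CPM in control cells, a ratio of 26.8-fold with a counting interval of 9.16 to 130 (edgeR adjusted p 0.00519). P2ry2, a receptor for ATP and UTP, was also called lower (edgeR adjusted p 0.0417). The median of the 11 genes was -3.34, or -2.46 with genes at 0 set to their bound. Slc29a1 remained called without either macula densa library. Panx1, Nt5e and P2ry2 did not, and Adora1 remained without replicate 1 but not without replicate 2. Without control-cell replicates 2 and 4, Slc29a1 and Adora1 remained called.

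The salt transport genes held 3 calls, all higher, among 20 tested: Wnk1, Slc9a2 and Slc12a1. Slc12a1, the apical cotransporter through which the macula densa senses salt, measured 1875 and 2012 CPM in macula densa cells and 220, 194, 430 and 143 CPM in control cells (log2 fold change 2.98, SE 0.65, edgeR adjusted p 0.0201). Wnk1, the kinase upstream of these cotransporters, had almost equal values of 689 and 690 CPM in macula densa cells and 115, 195, 93.9 and 167 CPM in control cells. It was higher by a log2 fold change of 2.27 (SE 0.31, edgeR adjusted p 0.00167). Slc9a2, a sodium and proton exchanger of the macula densa apical membrane, had 27.6 and 24.6 CPM against 4.38, 4.90, 3.15 and 3.97 CPM (log2 fold change 2.67, edgeR adjusted p 0.0184).

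The median of the 20 salt transport genes was 0.88, and 16 of them had a positive log2 fold change. For 3 of the 20 both macula densa libraries lay below all control cells, where the share over all genes was 19.5%. For 10 of them both macula densa libraries lay above all control cells, where the share over all genes was 15.3%. The apical potassium channel gene Kcnj1 was among these 10 without being called, at 66.5 and 80.4 CPM against 36.5, 22.8, 43.5 and 32.8 CPM (edgeR adjusted p 0.261). Among the 14 thick ascending limb markers the called genes were Slc12a1, Casr and Ptger3, and the median was 1.78. Wnk1 remained called without either macula densa library and without control-cell replicates 2 and 4, whereas Slc9a2 and the 3 thick ascending limb genes did not.

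Receptors for hormones and growth factors were called higher for 6 and lower for 5 of 24 genes tested. Pth1r, the parathyroid hormone receptor, had 203 and 167 CPM in macula densa cells and 45.7, 40.6, 37.8 and 35.4 CPM in control cells, with a log2 fold change of 2.21 (SE 0.24, edgeR adjusted p 0.000420). It overlaps Myl3 on the opposite strand. Casr, the extracellular calcium sensor, stood at 147 and 183 CPM against 21.8, 20.3, 27.3 and 19.8 CPM (log2 fold change 2.89, edgeR adjusted p 0.0187). Erbb4, a receptor of neuregulins, had 101 and 105 CPM against 27.4, 18.4, 45.8 and 10.5 CPM, and Gcgr, the glucagon receptor, 11.1 and 16.7 CPM against 3.69, 2.45, 5.04 and 2.34 CPM. Their log2 fold changes were 2.02 and 2.05, with edgeR adjusted p-values of 0.0391 and 0.0441.

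Ramp3, which pairs with the calcitonin receptor-like receptor, and Ngfr, the low-affinity neurotrophin receptor, were the other receptor genes called higher. Ramp3 had 7.47 and 12.3 CPM in macula densa cells and at most 1.68 CPM in control cells. Ngfr had 4.21 and 1.80 CPM against 0.42 CPM in control-cell replicate 3 and 0 in the other control-cell libraries. The vasopressin receptor gene Avpr1a had 19.3 and 15.1 CPM against 5.61, 0.73, 0 and 2.24 CPM, which did not overlap and did not pass (edgeR adjusted p 0.0845).

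Among the receptors called lower, Fgfr2 had the smallest p, with 1.34 and 0.82 CPM in macula densa cells and 31.1, 17.9, 21.8 and 22.2 CPM in control cells (log2 fold change -4.43, SE 0.35, edgeR adjusted p 5.1e-05), and it was called in 23 of 23 alternatives. It overlaps Ctbp2 on the same strand. Egfr, the receptor of epidermal growth factor, had 2.11 and 1.15 CPM against 14.2, 10.3, 5.88 and 7.12 CPM. Npr1, Ednrb and Calcrl, receptors known from vessels and glomeruli, were also called lower. The median over the 24 genes was -1.30, or -0.82 with genes at 0 set to their bound. Pth1r and Fgfr2 remained called without either macula densa library and without control-cell replicates 2 and 4, and Calcrl remained without macula densa replicate 1. The other 8 receptor calls were lost in all 3 of these settings.

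Of the 39 secreted signals tested, 6 were called higher, Vash2, Pamr1, Bmp2, Bmp3, Cxcl14 and Cx3cl1, and 5 lower, Angpt2, Wnt7b, Fgf1, Ccn1 and Cxcl16. Bmp2, a bone morphogenetic protein, had 14.4 and 9.51 CPM in macula densa cells and 1.15, 1.22, 0.63 and 1.32 CPM in control cells (log2 fold change 3.41, SE 0.48, edgeR adjusted p 0.00214). Bmp3, a member of the same family that can oppose it, had 102 and 108 CPM against 24.0, 5.88, 7.14 and 3.26 CPM, where control-cell replicate 1 was the highest control library (log2 fold change 3.35, SE 0.59, edgeR adjusted p 0.00670). The chemokine Cx3cl1 had 53.6 and 44.8 CPM against 20.5, 22.5, 11.1 and 26.4 CPM (log2 fold change 1.28, edgeR adjusted p 0.0407).

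The chemokine Cxcl14 rested on few counts, with 2.49 and 1.80 CPM in macula densa cells and 0.15, 0, 0 and 0 CPM in control cells. Angpt2, an angiopoietin of vessel walls, had 0.77 and 0.33 CPM in macula densa cells and 24.2, 61.9, 5.04 and 41.6 CPM in control cells (log2 fold change -5.92, edgeR adjusted p 0.0111). Ccn1, a matricellular protein, had 3.45 and 6.23 CPM against 25.3, 11.8, 13.0 and 16.7 CPM (log2 fold change -1.79, edgeR adjusted p 0.0297). The median of the 39 genes was -0.99, or -0.51 with genes at 0 set to their bound. Vash2, Pamr1 and Bmp2 remained called without either macula densa library and without control-cell replicates 2 and 4. Bmp3 lost the call without macula densa replicate 2, and of the 5 genes called lower, Wnt7b remained without macula densa replicate 1 and Angpt2 without control-cell replicates 2 and 4.

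Axon guidance genes, which steer growing nerve fibres and vessels, were called higher for 5 and lower for 8 of 42 tested. Slit2, a secreted repellent, and Robo2, its receptor, were both higher. Slit2 had 143 and 170 CPM in macula densa cells and 15, 14.4, 26.5 and 12.2 CPM in control cells (log2 fold change 3.21, SE 0.64, edgeR adjusted p 0.0127). Robo2 had 193 and 156 CPM against 4.92, 33.3, 11.1 and 28.8 CPM, and the control values were spread widely, with replicates 2 and 4 highest (log2 fold change 3.17, SE 0.85, edgeR adjusted p 0.0434). Robo2 is also known from podocytes, whose markers were highest in the same control-cell libraries.

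The netrin receptor gene Unc5d was higher by a log2 fold change of 3.96 (edgeR adjusted p 0.00534), with 4.79 and 9.02 CPM against 0.69, 0.25, 0 and 0.51 CPM. The semaphorin genes Sema4a and Sema4d had log2 fold changes of 1.68 and 1.14, with edgeR adjusted p-values of 0.00578 and 0.0224. Of the lower genes, Epha2, an ephrin receptor, had 0.58 and 0 CPM in macula densa cells and 8.68, 8.57, 7.98 and 9.56 CPM in control cells. Its 4 control-cell libraries were alike, and the ratio was 33.3-fold with a counting interval of 11.4 to 162 (edgeR adjusted p 0.00173). Efnb2, Nrp2 and Plxnd1, which are known from vessels, had log2 fold changes or ratios of the same direction, with control values highest in replicates 2 and 4, as for Efnb2 at 34.7, 102, 21.6 and 126 CPM.

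The median over the 42 axon guidance genes was 0.07 and was -0.68 without macula densa replicate 1. Without macula densa replicate 2 none of the 5 higher genes and 1 of the 8 lower genes, Epha2, remained called. Without control-cell replicates 2 and 4, Unc5d and Epha2 remained.

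Among 14 genes of neuronal differentiation and cytoskeleton, Nsg2 and Ngfr were called higher and Map1b lower. Nsg2, a vesicle protein of neurons, had 16.9 and 15.7 CPM in macula densa cells and 1.08, 1.96, 1.47 and 1.12 CPM in control cells (log2 fold change 3.60, SE 0.67, edgeR adjusted p 0.00966). Map1b, a microtubule protein of growing axons, was lower, with 2.11 and 3.77 CPM against 16.4, 30.4, 25 and 24.4 CPM (log2 fold change -3.01, edgeR adjusted p 0.0156). The list's median was 0.01 and was -0.17 without macula densa replicate 1. Nsg2 lost its call without macula densa replicate 2, and Ngfr and Map1b lost theirs without either macula densa library. None of the 3 was called without control-cell replicates 2 and 4.

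Transcription factors of nephron segments gave 4 genes called higher and 3 lower of 29 tested, with a median of -0.63. The 2 neighbouring homeobox genes Irx1 and Irx2, known from the loop of Henle, were both higher. Irx1 had 189 and 178 CPM in macula densa cells and 22.0, 17.6, 39.3 and 11.6 CPM in control cells (log2 fold change 3.03, SE 0.38, edgeR adjusted p 0.00105). Irx2 had 87.7 and 84.3 CPM against 11.8, 6.86, 17.6 and 7.12 CPM (log2 fold change 2.99, SE 0.35, edgeR adjusted p 0.000666). Both genes had the same order of control-cell libraries at the top, replicate 3 and then replicate 1.

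Tfap2b, a factor of the distal nephron, had 105 and 89.1 CPM against 23.7, 12.2, 25.8 and 15.9 CPM, and Pou3f3, a factor of the thick ascending limb, 85.6 and 113 CPM against 42.2, 34.5, 31.9 and 34.9 CPM. Their log2 fold changes were 2.32 and 1.46, with edgeR adjusted p-values of 0.0297 and 0.0220. Gata3, which marks the collecting duct, had 0.58 and 2.79 CPM in macula densa cells and 18.6, 14.7, 9.45 and 16.7 CPM in control cells (log2 fold change -3.11, edgeR adjusted p 0.0123). Pax8, expressed along the nephron, had 12.6 and 15.3 CPM against 55.0, 34.3, 44.5 and 32.2 CPM (log2 fold change -1.57, edgeR adjusted p 0.0161). Irx3 was lower as well and overlaps Irx3os on the opposite strand. Irx1 and Irx2 remained called without either macula densa library and without control-cell replicates 2 and 4, and Tfap2b and Pou3f3 did not. Of the 3 lower genes, Gata3 remained without macula densa replicate 2, and Pax8 and Irx3 without control-cell replicates 2 and 4.

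Of 30 basement membrane genes tested, 9 were called lower and 4 higher, with a median of -1.49, or -1.28 with genes at 0 set to their bound. Beside Frem1 the higher genes were Col4a3, Col4a4 and Lamb1. Col4a3, which overlaps C430014B12Rik on the opposite strand, had 379 and 272 CPM in macula densa cells and 92.0, 168, 102 and 141 CPM in control cells (log2 fold change 1.37, edgeR adjusted p 0.0225). Col4a4 had 315 and 302 CPM against 121, 149, 140 and 137 CPM (log2 fold change 1.18, edgeR adjusted p 0.0110). These chains are known to form a network with the Col4a5 chain in mature glomerular and distal tubular basement membrane. Col4a5 overlapped between the groups, with 21.8 and 37.6 CPM against 21.2, 30.4, 19.7 and 27.6 CPM (log2 fold change 0.27, edgeR adjusted p 0.547).

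The collagen IV chains of most basement membranes, Col4a1 and Col4a2, were called lower. Col4a1 had 46.0 and 37.6 CPM in macula densa cells and 121, 152, 90.1 and 155 CPM in control cells, and Col4a2 had 22.4 and 22.3 CPM against 76.6, 91.8, 83.8 and 92.4 CPM. Their log2 fold changes were -1.63 and -1.94, with edgeR adjusted p-values of 0.0200 and 0.00983. The 2 genes overlap on opposite strands only at chr8:11312805-11312826, a short part of each, and how reads there were divided is uncertain. Fn1, fibronectin, had 2.68 and 3.28 CPM against 38.8, 26.9, 24.8 and 35.3 CPM (log2 fold change -3.39, SE 0.63, edgeR adjusted p 0.00972).

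Npnt, nephronectin, and Hspg2, perlecan, were also called lower, with control values highest in replicates 2 and 4 for both. Without macula densa replicate 2, Frem1 was the basement membrane gene that remained called. Without replicate 1, Frem1, Lama3 and Lamb2 remained, and without control-cell replicates 2 and 4, Frem1, Col4a3, Lama5, Fn1 and Npnt did. Among 29 integrin and focal adhesion genes, Itga1, a collagen-binding integrin chain, was the 1 called higher. It had 95.8 and 76.9 CPM in macula densa cells and 38.7, 32.3, 25.8 and 28.8 CPM in control cells (log2 fold change 1.46, SE 0.21, edgeR adjusted p 0.00272), remained called in 23 of 23 alternatives, and overlaps Gm49395 on the same strand. Itga9, Lims2, Itga3 and Itgb4 were called lower, and their calls were lost without either macula densa library. Without control-cell replicates 2 and 4, Itgb4 remained.

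**Figure D4:**
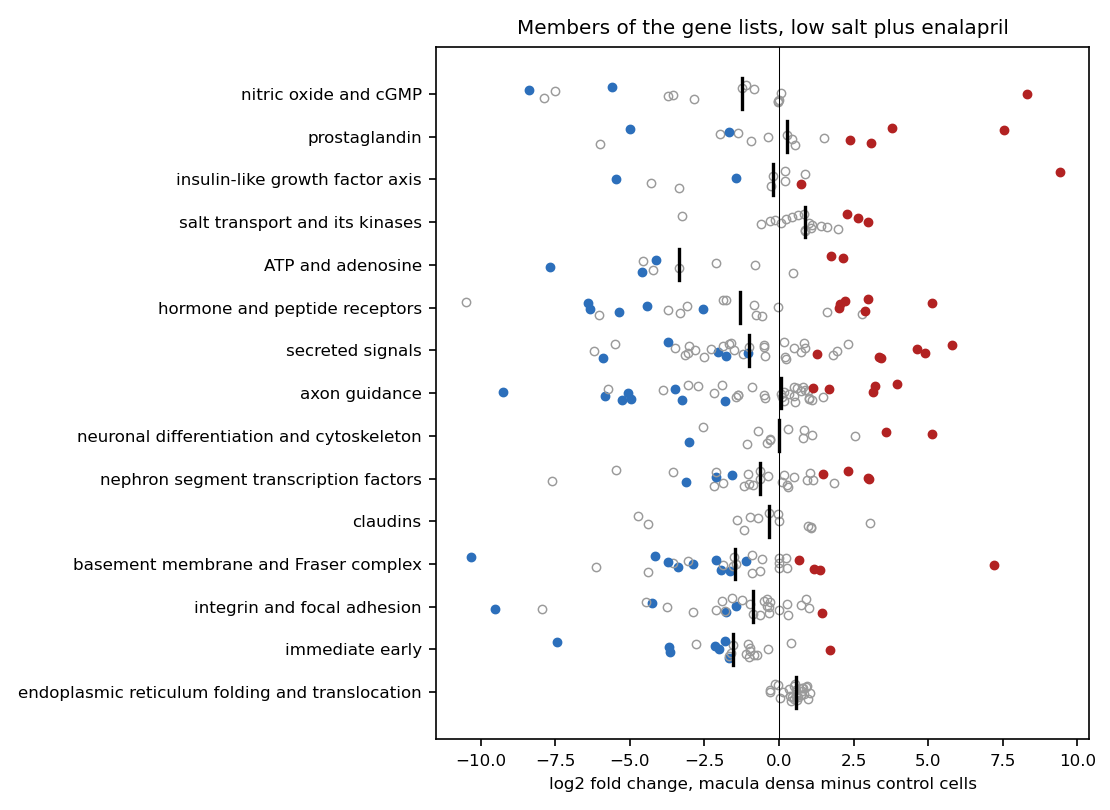
Fitted log2 fold change of each tested member of the lists named by function, with called genes filled in red (higher) or blue (lower), genes not called open in grey, and the list's median as a black bar. Most lists hold called genes on both sides, and the salt transport list holds 3 called genes, all higher. Values below about -7 belong to genes with few or no counts in macula densa cells and are not measured sizes.

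The 15 genes named as lower were ranked by fitted fold change, which places genes at 0 counts first, so their bounds do not follow that order and genes with counts in both groups can differ by more. Of these 15, 13 had 0 counts in both macula densa libraries, and Plpp1 and Nphs1 had 0.38 and 0 CPM. Over all genes called lower, 70 had 0 counts in both macula densa libraries. Nid1, a nidogen of basement membrane, had 10.8, 29.1, 7.14 and 26.2 CPM in control cells a bound of at least 34.3-fold lower (edgeR adjusted p 0.0230). Inpp5d, a lipid phosphatase known from blood cells, had 6.99, 14.4, 7.98 and 15.6 CPM in control cells a bound of at least 21.1-fold lower (edgeR adjusted p 0.0242). For both genes, control-cell replicates 2 and 4 were the highest libraries.

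Bcat1, a cytosolic branched-chain aminotransferase, had 20.7, 9.55, 3.57 and 9.46 CPM in control cells, led by replicate 1, a bound of at least 20.3-fold lower (edgeR adjusted p 0.00725). The other genes at 0 were Itga9, Sp100, Robo4, Sema7a, Galnt15, Rhoj, Rnf144a, Tspan2 and Raver2, with bounds between at least 19.6-fold for Itga9 and at least 9.99-fold for Tspan2 and Raver2. Sema7a, a membrane-bound semaphorin, and Galnt15, a glycosyltransferase, differed from the rest in having their highest control values in replicate 3, at 14.3 and 11.6 CPM. Raver2 overlaps Jak1 on the opposite strand.

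Nphs1, which encodes nephrin of the podocyte slit diaphragm, had 6.84, 55.8, 13.0 and 52.8 CPM in control cells. Its ratio was 160-fold, with a counting interval of 44.4 to 1324 (edgeR adjusted p 0.0461). Plpp1, a phospholipid phosphatase that overlaps Mtrex on the opposite strand, had 20.2, 50.2, 15.1 and 59.6 CPM and a ratio of 201-fold, with a counting interval of 55.7 to 1660 (edgeR adjusted p 0.0364). Akap2, an anchor of protein kinase A, had 15.3, 34.8, 8.19 and 35.4 CPM in control cells and its gene is nested in Pakap on that strand, so how its reads were divided is uncertain. With the counts of both genes summed, an alternative chosen after seeing the data, the log2 fold change was -3.33 (SE 0.41, edgeR adjusted p 0.00103), a smaller difference than that of Akap2 alone. With limma voom none of the 15 genes named as lower was called, and DESeq2 called all 15. Fewer of these calls held than of the 15 higher genes: Akap2 and Bcat1 remained without macula densa replicate 1, Akap2 alone without replicate 2, and Akap2, Bcat1, Sema7a and Galnt15 without control-cell replicates 2 and 4.

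Markers of other cell types made up part of the lower genes. Of the 12 endothelial markers 7 were called lower and 12 lay below all control-cell libraries, where the share over all genes was 19.5%. Flt1, a receptor of vascular endothelial growth factor, had 0.96 and 0.33 CPM in macula densa cells and 54.6, 124, 63.2 and 166 CPM in control cells (log2 fold change -7.32, SE 1.48, edgeR adjusted p 0.0139). Pecam1, a junction protein of endothelium, had 2.11 and 1.31 CPM against 32.0, 74.2, 25.4 and 94.7 CPM (log2 fold change -5.05, edgeR adjusted p 0.0307). The endothelial median was -5.84, or -5.43 with genes at 0 set to their bound, and it was -4.71 without control-cell replicates 2 and 4, when none of the 7 was called. With limma voom none of the 7 was called either, and DESeq2 called all 12 markers.

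Of 10 podocyte markers 4 were called lower, Podxl, Clic5, Nphs1 and Synpo, with a list median of -5.47. Podxl, the sialomucin of foot processes, had 5.36 and 2.79 CPM in macula densa cells and 79.9, 524, 100 and 429 CPM in control cells. Without control-cell replicates 2 and 4 the median was -3.83 and none of the 4 was called. With limma voom none of the 4 was called, and DESeq2 called 7 of the 10. The part of these cell types in the other genes that were lower was not tested.

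Smooth muscle and renin cell markers were called lower for 6 of 7 genes, with a median of -3.91. Myh11, smooth muscle myosin, had 12.3 and 3.28 CPM in macula densa cells and 77.9, 305, 158 and 198 CPM in control cells (log2 fold change -4.58, SE 0.66, edgeR adjusted p 0.00235), and was called in 23 of 23 alternatives. Ren1, renin itself, had 8.24 and 11 CPM against 42.7, 135, 66.4 and 92.6 CPM (log2 fold change -3.12, SE 0.54, edgeR adjusted p 0.00637). Without control-cell replicates 2 and 4, Ren1, Acta2, Myh11 and Rgs5 remained called. Ren1 lost the call without either macula densa library, when Acta2, Myh11 and Rgs5 remained, together with Akr1b7 without replicate 1 and Tagln without replicate 2. With limma voom, Ren1 and Myh11 remained.

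Of 10 markers of collecting duct principal cells, which the control cells were meant to include, 4 were called lower. Aqp2, the vasopressin-regulated water channel of principal cells, had 1.53 and 7.87 CPM in macula densa cells and 156, 64.9, 50.0 and 74.5 CPM in control cells, with replicate 1 highest (log2 fold change -4.18, SE 0.89, edgeR adjusted p 0.0184). Aqp3, Fxyd4 and Gata3 were the others called. All 10 markers lay below every control-cell library, where the share over all genes was 19.5%, and the median was -3.15. None of the 4 was called without macula densa replicate 1, Gata3 remained without replicate 2, and Aqp2 without control-cell replicates 2 and 4. With limma voom none of the 4 was called, and DESeq2 called 9 markers. The 12 intercalated cell markers, the 10 of distal convoluted and connecting tubule and the 12 of proximal tubule held no called gene, with medians of -1.89, -0.06 and 0.50. At an unadjusted edgeR p under 0.05 these lists held 4, 1 and 1 genes, DESeq2 called 4, 0 and 0, and limma voom called 0 in each. The proximal tubule median was -0.20 without macula densa replicate 2.

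Of 21 tested immediate early genes, which respond within minutes to stimuli and to handling of tissue, 7 were called lower in macula densa cells and Ier3 was called higher. Their median was -1.54. Fosl2, a subunit of AP-1, had 2.87 and 1.31 CPM in macula densa cells and 30.0, 18.6, 36.1 and 20.2 CPM in control cells (log2 fold change -3.66, SE 0.47, edgeR adjusted p 0.00127). Junb, its partner in AP-1, had 7.47 and 10.01 CPM against 36.9, 27.2, 28.8 and 47.2 CPM, and overlaps Prdx2 on the opposite strand (log2 fold change -2.0, edgeR adjusted p 0.0106). Nr4a3, an orphan nuclear receptor, had 0 counts in both macula densa libraries with a bound of at least 4.70-fold lower (edgeR adjusted p 0.00308). Fosl2 and Nr4a3 remained called without either macula densa library, and with control-cell replicates 2 and 4 left out Junb and Atf3 remained as well.

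Of 27 tested genes for protein folding and translocation in the endoplasmic reticulum none passed edgeR's quasi-likelihood test with adjustment over all genes, 23 had a positive log2 fold change, and for 13 both macula densa libraries lay above all control-cell libraries, where the share over all genes was 15.3%. At an unadjusted p under 0.05 there were 8, DESeq2 called 3 and limma voom 0. Their median was 0.56. The 13 mitochondrially encoded genes had a median of 0.46 with no call, and the 13 claudins tested had a median of -0.34 with no call. At an unadjusted edgeR p under 0.05 these lists held 1 and 5 genes, DESeq2 called 1 and 3, and limma voom called 0 in each.

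The same comparison on control diet was used to see which of these differences were present outside the stimulated state. There 938 genes (6.61%) were called, 382 (2.69%) higher and 556 (3.92%) lower. The 463 genes called on both diets are 44.9% of those called on low salt plus enalapril and 49.4% of those called on control diet. Of the genes called on low salt plus enalapril, 93.9% had a fold change of the same sign on control diet, so a missing call there does not show a missing difference. Of the 15 genes named as higher, 12 were also called on control diet, the exceptions being Pcdh8, Vegfd and Tmem158. Of the 15 named as lower, 4 were, namely Akap2, Bcat1, Sp100 and Rhoj. No gene was called in the test of the difference between the 2 cell comparisons by edgeR, and 997 (7.03%) had an unadjusted p under 0.05. DESeq2 called 13 genes and limma voom 0.

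Several genes that set macula densa cells apart on low salt plus enalapril had smaller differences on control diet, but none of these contrasts passed. Ptgs2 had a log2 fold change of 5.85 on control diet and 7.56 here, with a difference of 1.71 (SE 1.10, edgeR adjusted p 0.788). Frem1 had 10.5 and 11.7 CPM in macula densa cells on control diet, and its difference was 2.53 (SE 0.81, edgeR adjusted p 0.633). Wnk1 had 334 and 422 CPM in macula densa cells and 167, 155, 210 and 278 CPM in control cells on control diet, a log2 fold change of 0.90 (edgeR adjusted p 0.0998), with a difference of 1.37 (SE 0.45, edgeR adjusted p 0.633). Bmp2 had 3.80 and 1.38 CPM against 1.75, 2.63, 2.0 and 0.83 CPM on control diet, where the groups overlapped, and its difference was 2.91 (SE 0.71, edgeR adjusted p 0.558).

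Among called genes the smallest p-values for the difference belonged to Sparcl1, Spon1, Rps28, Akap2 and Ankrd26, all lower in macula densa cells here. Sparcl1, a matricellular protein related to SPARC, had 1.15 and 0.66 CPM in macula densa cells and 40.5, 64.6, 46.2 and 55.0 CPM in control cells (log2 fold change -5.83, SE 0.50, edgeR adjusted p 8.53e-05). On control diet the macula densa libraries had 10.6 and 6.92 CPM and the log2 fold change was -2.36, so that the difference was -3.47 (SE 0.57, edgeR adjusted p 0.382). Spon1, a matrix protein of the spondin family, had 0.19 and 0.16 CPM in macula densa cells and 13.4, 9.30, 6.30 and 14.6 CPM in control cells, a ratio of 68.9-fold with a counting interval of 19.1 to 569. On control diet its macula densa libraries had 4.0 and 3.18 CPM. Rps28 overlaps Kank3 and has near-identical copies, so its count is uncertain.

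**Figure D5:**
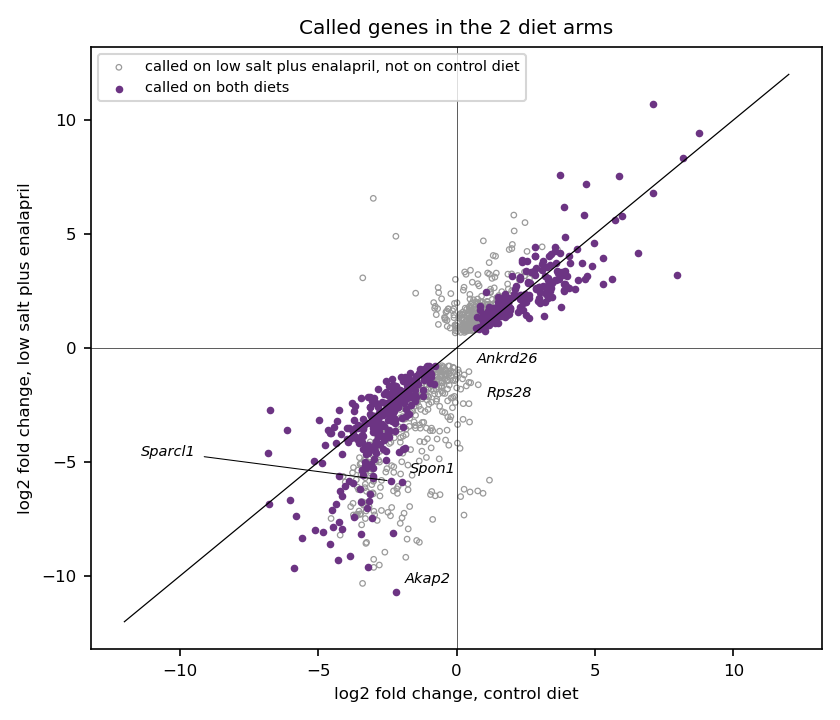
Fitted log2 fold change of macula densa over control cells on low salt plus enalapril against the same on control diet for the 1031 genes called on low salt plus enalapril, with the 463 called on both diets filled. The line marks equal values, and the 5 genes with the smallest p-values for the difference between diets are labelled. Genes at 0 in a group have fitted folds that are not measured sizes.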

How the data were processed

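The deposited table holds estimated counts per gene, not normalized, for 12 libraries. The submitters' processing notes name STAR 2.61, Partek and the mouse build mm10; how strand was used in counting is not given in the sources used here. Per the labels' protocols, libraries were made together with a stranded total-RNA kit. Of the deposited estimated counts 16.1% were not whole, and all were rounded. No column lacked a sample (0). Gene coordinates are those of the table, which matched GENCODE M21 for 23351 of 23378 genes.

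Genes were kept by filterByExpr (count minimum 10, total minimum 15), scaled with TMM and fitted in edgeR 4.0.16 (R 4.3.3) by glmQLFit and glmQLFTest with 1 coefficient for each of the 4 groups. P-values were adjusted over 14180 genes by the Benjamini-Hochberg method at 0.05. Standard errors are the fold change divided by the root of the F statistic. Log2 CPM used a prior count of 2, and a gene at 0 was set to 3 counts per library for its bound. Genes were named by rule: in each direction, the 15 called genes of greatest fold change whose groups did not overlap and whose higher group averaged 5 CPM or more; members of 29 gene lists; the 5 called genes with the smallest p for the difference between diets, at a mean of 5 CPM or more in a group; and genes overlapping these. Gm, Rik and Mir symbols were passed over. The members and lists were chosen with earlier results of these data known. On simulated data with 200 genes changed 4-fold among 13531, the comparison on low salt plus enalapril recovered 34% of them with 7 false calls. No libraries of a group agreed within sampling noise. Alternatives used DESeq2 1.42.0, limma 3.58.1 and the settings given at the end, and leaving out control-cell replicates 2 and 4 and summing Akap2 with Pakap were chosen after seeing the data.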

Additional observations from a re-analysis of the deposited data

Results flagged for a closer look

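In 163 sets of 4 control-cell libraries on low salt plus enalapril (the genes named in the text and the gene lists), 5 had a library far from the other 3 by Dixon's criterion, where chance gives about 1 in 20 sets. Klf4, an immediate early gene called lower in macula densa cells, was at 5.42 log2 CPM in control-cell replicate 3 against 4.0 to 4.08 in the others. Lama3, a laminin chain called lower, was at 4.17 log2 CPM in control-cell replicate 4 against 3.28 to 3.42. Nr4a3 was at 1.96 log2 CPM in control-cell replicate 2 against 1.18 to 1.30. Ngfr was at -0.62 log2 CPM in control-cell replicate 3 and Cxcl14 at -1.39 in control-cell replicate 1, and the others were listed at 0 counts for each.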

How the results depend on the processing

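All 127 called genes named in the text kept their direction in every alternative run, and 28 of them kept the call in each alternative at a threshold of 0.05. The number of genes called on low salt plus enalapril, 1031, was 1922 with the DESeq2 Wald test, 516 with limma voom, 251 at an adjusted p of 0.01 and 330 without control-cell replicates 2 and 4. It ran from 194 (without macula densa replicate 2) to 1894 (without control-cell replicate 4 of the control diet) when a library was left out. On control diet the 938 calls became 2000 with DESeq2, 1919 with limma voom, 468 with only those groups fitted and 241 at an adjusted p of 0.01, and ran from 122 to 2490 when a library was left out. For the difference between diets, 0 genes became 13 with DESeq2. The libraries share numbers in the labels, which do not say that a number marks an animal. Deviations of macula densa and control-cell libraries with the same description number correlated at 0.0753, -0.0371, 0.2268 and -0.0183. With 2 macula densa libraries per diet, their deviations mirror each other, so these values cannot tell whether the numbers mark pairs. The main fit left the numbers out. A replicate block on the description number gave 2231, 2292 and 3 calls in the 3 comparisons, and on the title number 396 and 378 in the first 2. With the first block, 2 intercalated cell markers were called higher and 7 lower, and 2 distal convoluted and connecting tubule markers higher and 1 lower. It also called 5 leukocyte and 2 erythroid genes lower, and 1 claudin higher and 2 lower. In the endoplasmic reticulum list 3 genes were called higher, and 2 mitochondrially encoded genes were. None of these lists held a call in the main fit. The proximal tubule list had 0 calls in both. Lists with calls in the main fit changed too. Salt transport had 13 genes called higher instead of 3, and thick ascending limb 10 instead of 3. Leaving out a macula densa library leaves its group with 1, which is assumed to vary like the other groups. Of 666 recomputed list medians, 81 moved by more than the spread between libraries and 35 changed sign. Col4a5, which was not called, ran from -0.21 (without macula densa replicate 2) to 0.56 (without macula densa replicate 1) when a library was left out. At this depth, genes under 0.734 CPM in the shallowest library rest on fewer than 3 counts.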

Other observations

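Marker lists of the other cell types that the sort could hold gave the following values on low salt plus enalapril. The 6 tested genes of mesangial cells and fibroblasts had a median log2 fold change of -3.75, or -3.46 with genes at 0 set to their bound, and the collagen gene Col3a1 was called lower (edgeR adjusted p 0.0302), a call that limma voom did not make and that was lost without either macula densa library. Their sum was 4.41 and 1.31 CPM in macula densa cells and 54.8, 43.3, 20.2 and 32.4 CPM in control cells. The 5 leukocyte genes tested held no call in the main edgeR fit, with 3 at an unadjusted p under 0.05, 3 called by DESeq2 and 0 by limma voom. They summed to 6.70 and 2.95 CPM against 14.3, 149, 3.78 and 75.8 CPM, so control-cell replicate 3 overlapped the macula densa libraries. The 5 erythroid genes held no call in the main edgeR fit, with DESeq2 or with limma voom. In the main fit 0 were at an unadjusted p under 0.05, and their sum reached 66.6 CPM in control-cell replicate 2. Of the 4 sex-linked genes tested, Kdm5d was called higher in macula densa cells (edgeR adjusted p 0.0478). This call was lost with limma voom, without either macula densa library and without control-cell replicates 2 and 4. The Y-linked genes Ddx3y and Eif2s3y were not called, with log2 fold changes of 0.04 and 0.29 (edgeR adjusted p 0.942 and 0.595). Klk1, kallikrein of the connecting tubule, had 469 and 304 CPM in macula densa cells and 51.9, 83.0, 228 and 71.3 CPM in control cells, which did not overlap and did not pass (edgeR adjusted p 0.155).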
